A study of Mus musculus with 24 samples.

Results

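Chromatin accessibility was described at 10 CXC chemokine genes (Cxcl1, Cxcl2, Cxcl3, Cxcl5, Ppbp, Pf4, Cxcl9, Cxcl10, Cxcl11 and Cxcl16) in mouse bone marrow-derived macrophages (BMDMs) with and without the aryl hydrocarbon receptor (AhR). A peak is a stretch of the genome (mm10) in which the transposase of ATAC-seq inserted often. A peak was taken when it overlapped the body of one of these genes in the GENCODE vM21 annotation or lay within 20 kb of it, and was given to the nearest of them. This gave 54 of 184158 consensus peaks, of which 53 had enough reads to be tested: 8 each for Cxcl5, Cxcl9 and Cxcl16, 7 for Cxcl11, 6 for Cxcl1, 5 for Cxcl3, 4 each for Cxcl2 and Cxcl10, 2 for Pf4 and 1 for Ppbp. The peak that was left out lay 9.0 kb upstream of Cxcl9 and averaged 0.263 CPM. CPM is the read pairs in the peak per M read pairs counted in the tested peaks of the library, with M for mega.

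There were 4 groups of 6 libraries: WT and AhR-KO cells, each unstimulated or with LPS. WT marrow came from C57/B6/J mice and AhR-KO marrow from B6.129-Ahr tm1Bra/J mice, whose allele removes AhR from every cell of the animal. The methods name mice of both sexes, aged 7 to 14 weeks and matched for age and sex, without an age for each group. All marrow was grown with 10% FBS, 10 ng/ml GM-CSF and 2 ng/ml TGF-β, which drives cells with features of alveolar macrophages. The LPS groups received 97 EU/ml lipopolysaccharide (LPS), the bacterial cell wall component sensed by TLR4, on day 6 and for 24 h. The calcium ionophore A23187 followed at 5 µM for 10 min, and the labels attach this text to every library, unstimulated ones included. A figure legend of the study gives 6 animals per group from a single experiment, which is a separate animal for each library of a group. Whether the unstimulated and the LPS libraries of a genotype shared animals is not given in the sources used here.

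CXC chemokines are small secreted proteins that attract leukocytes through G protein-coupled receptors. Cxcl1, Cxcl2, Cxcl3, Cxcl5 and Ppbp act on neutrophils through CXCR2. Cxcl9, Cxcl10 and Cxcl11 are induced by interferons and attract T cells and NK cells through CXCR3. Cxcl16 is held on the membrane and binds CXCR6, and Pf4 and Ppbp are best known from platelet granules. In macrophages, LPS induces many of these genes through NF-κB and through interferon signalling, and AhR is a ligand-activated transcription factor whose core binding letters are GCGTG. Of the 10 genes, 9 lie in 2 clusters on chromosome 5: Cxcl5, Ppbp, Pf4, Cxcl3, Cxcl1 and Cxcl2 between chr5:90759360 and 90905938, and Cxcl9, Cxcl10 and Cxcl11 between chr5:92321347 and 92365485. Cxcl16 is on chromosome 11 (chr11:70453983-70459984). The annotation calls Cxcl11 a polymorphic pseudogene, since its reading frame is broken in the reference strain. A peak's name below gives the distance of its middle from the gene's start in kb, positive in the direction of transcription, and a TSS peak is one that covers an annotated start.

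The sequences just before the starts of 6 of these genes are shown first, because LPS changed accessibility at most of them and Cxcl2 and Ppbp also differed between the genotypes. They come from RefSeq (GRCm38.p6, the assembly that mm10 names), in which 7 of the 10 genes had an entry, with none for Cxcl5, Cxcl11 and Cxcl16. Each run of up to 250 bases is written 5′ to 3′ on the strand of the gene and lies inside its TSS peak. It ends just before the gene's first base, or, for Cxcl3, a few bases short of it. Capitals mark the letters searched on both strands: the AhR core (GCGTG), an NF-κB form (GGNNTTTCC), an interferon response form (GAAANNGAA), an AP-1 form (TGANTCA) and a PU.1 form (GAGGAAGT).
Cxcl1, chr5:90890995-90891240, plus strand: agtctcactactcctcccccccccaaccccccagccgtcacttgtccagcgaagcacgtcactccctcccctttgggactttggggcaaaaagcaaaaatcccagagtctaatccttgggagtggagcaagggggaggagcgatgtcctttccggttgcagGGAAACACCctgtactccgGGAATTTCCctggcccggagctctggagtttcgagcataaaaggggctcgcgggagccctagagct
Cxcl2, chr5:90903649-90903870, plus strand: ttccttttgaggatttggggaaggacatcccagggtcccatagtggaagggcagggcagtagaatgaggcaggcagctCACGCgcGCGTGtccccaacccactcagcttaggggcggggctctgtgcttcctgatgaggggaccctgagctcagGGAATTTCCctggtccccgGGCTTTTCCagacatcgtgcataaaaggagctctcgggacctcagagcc
Cxcl3, chr5:90785851-90786100, plus strand: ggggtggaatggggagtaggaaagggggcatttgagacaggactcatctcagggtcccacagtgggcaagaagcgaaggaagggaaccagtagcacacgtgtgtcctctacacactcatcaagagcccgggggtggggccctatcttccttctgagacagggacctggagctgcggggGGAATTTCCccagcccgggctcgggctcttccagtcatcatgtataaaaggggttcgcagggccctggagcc
Cxcl9, chr5:92328080-92328329, minus strand: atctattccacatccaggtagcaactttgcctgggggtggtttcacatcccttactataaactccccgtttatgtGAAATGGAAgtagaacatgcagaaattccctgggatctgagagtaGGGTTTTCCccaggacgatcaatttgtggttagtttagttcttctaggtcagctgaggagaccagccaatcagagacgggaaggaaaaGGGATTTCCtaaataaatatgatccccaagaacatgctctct
Cxcl10, chr5:92348890-92349139, minus strand: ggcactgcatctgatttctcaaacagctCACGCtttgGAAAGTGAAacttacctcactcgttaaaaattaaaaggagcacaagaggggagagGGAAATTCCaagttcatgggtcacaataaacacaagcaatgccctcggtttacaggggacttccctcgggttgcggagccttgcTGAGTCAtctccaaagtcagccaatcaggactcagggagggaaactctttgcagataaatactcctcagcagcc
Ppbp, chr5:90768268-90768517, plus strand: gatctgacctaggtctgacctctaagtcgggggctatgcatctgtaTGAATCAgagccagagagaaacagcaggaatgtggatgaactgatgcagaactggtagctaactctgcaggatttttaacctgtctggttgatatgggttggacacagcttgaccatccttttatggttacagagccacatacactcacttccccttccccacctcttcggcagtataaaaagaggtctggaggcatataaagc
The NF-κB letters stood in the runs of Cxcl1, Cxcl2, Cxcl3, Cxcl9 and Cxcl10, and 4.93% of 32851 RefSeq promoters hold them in the same 250 bases. Cxcl1, Cxcl2 and Cxcl3 shared the run GGAATTTCC. The interferon response letters were found before Cxcl9 and Cxcl10 (7.13% of promoters) and the AP-1 letters before Cxcl10 and Ppbp (6.75%). The AhR core stood 2 times before Cxcl2 and 1 time before Cxcl10, and 28.2% of promoters hold it. The PU.1 letters were in none of the 6 runs shown, were present before Pf4, and stood in 2.44% of promoters. A match is a run of letters and not a measured binding site.

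A pair of peaks away from the gene starts is shown as well, because they carried the largest fold differences of the family outside the TSS peaks. The first is the +20.9 kb peak of Cxcl9 (chr5:92306939-92307336, within the Sdad1 gene and outside its exons in the window shown), the peak that differed most between the genotypes. The second is the +2.8 kb peak of Cxcl2 (chr5:90906464-90906820, past the 3′ end of the gene), which gained most with LPS among the peaks off a start. Both had been called as broad peaks only in groups where they were high. They are given as 300 bases around the peak's middle on the plus strand.
Cxcl9 +20.9 kb, chr5:92306987-92307286: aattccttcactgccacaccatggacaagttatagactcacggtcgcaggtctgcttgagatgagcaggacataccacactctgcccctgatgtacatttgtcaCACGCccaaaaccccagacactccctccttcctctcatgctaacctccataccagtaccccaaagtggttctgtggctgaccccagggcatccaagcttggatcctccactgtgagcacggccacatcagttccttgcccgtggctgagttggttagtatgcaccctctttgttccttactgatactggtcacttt
Cxcl2 +2.8 kb, chr5:90906492-90906791: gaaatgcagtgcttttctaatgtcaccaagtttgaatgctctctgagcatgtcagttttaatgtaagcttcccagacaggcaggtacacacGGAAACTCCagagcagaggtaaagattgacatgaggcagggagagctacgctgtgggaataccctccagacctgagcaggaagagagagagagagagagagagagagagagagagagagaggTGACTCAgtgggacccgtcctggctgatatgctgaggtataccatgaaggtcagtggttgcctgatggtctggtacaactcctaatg
The first window held 1 AhR core and none of the other letters. The second held the NF-κB and the AP-1 letters. Over the same 300 bases, the AP-1 letters stood in 16 of the 53 tested chemokine peaks (30.2%, against 18.1% of 174106 tested peaks) and the NF-κB letters in 8 (15.1%, against 6.73%). The AhR core was present in 5 (9.43%, against 16.3%), the interferon response letters in 4 (7.55%, against 10.9%) and the PU.1 letters in 3 (5.66%, against 7.49%). These shares are a description, and neighbouring peaks are not independent.

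The totals of counted read pairs in peaks ran from 8.54 M to 34.6 M per library, and the lowest was WT unstimulated replicate 5. Values in CPM are relative to the TMM-scaled total of each library over the tested peaks. They are not divided by peak length, so they are compared between groups. The peak of highest CPM per gene, named below by rule, need not be the most open one per base. No peak covered exon 2 of Ahr, so the deletion itself was not checked, while the peak at the start of Ahr ranged from 19 to 24.6 CPM in the 12 WT libraries and from 11.5 to 16.8 CPM in the 12 AhR-KO libraries. All 6 macrophage and all 5 alveolar macrophage marker genes had a tested TSS peak. No T cell or B cell marker had one, nor did the neutrophil genes Ly6g, Mpo and Elane or the dendritic cell gene Xcr1. Summed over their TSS peaks, the macrophage markers reached 117 to 133 CPM in WT unstimulated libraries and 136 to 179 CPM in AhR-KO unstimulated ones, and the alveolar macrophage markers 38.2 to 49.2 and 53.1 to 66.4 CPM. With LPS both sums overlapped between the genotypes, at 106 to 120 and 101 to 135 CPM for the macrophage and 27.1 to 35.7 and 31.3 to 38.7 CPM for the alveolar macrophage markers. The sum over 3 dendritic cell markers with such a peak was 25.7 to 34.5 and 26.6 to 32.5 CPM in unstimulated WT and AhR-KO libraries, and 28.3 to 45.2 and 20 to 25.9 CPM with LPS. These sums hide opposite values. Flt3 was lower in AhR-KO cells without overlap, at 5.93 to 12.1 and 2.95 to 4.57 CPM unstimulated and 8.12 to 15.2 and 3.75 to 5.06 CPM with LPS. Ccr7 averaged 0.94 and 0.551 CPM in WT and AhR-KO cells unstimulated and 7.05 and 2.46 CPM with LPS, while Zbtb46 averaged 21.6 and 25.1 CPM and 18 and 15.8 CPM. The sum over 3 of the 6 neutrophil markers overlapped between genotypes in both states (31.6 to 44.7 and 35.1 to 38.9 CPM unstimulated, 34.7 to 52.0 and 43.4 to 51.4 CPM with LPS). Among them S100a9 was lower in unstimulated AhR-KO cells without overlap, at 2.08 to 4.06 CPM in WT and 0.821 to 1.61 CPM in AhR-KO libraries, and held 0.847 to 1.77 and 0.316 to 0.936 CPM with LPS. S100a8 averaged 20.2 and 24 CPM unstimulated and 16.2 and 17.2 CPM with LPS, and Camp 13.9 and 12.2 CPM and 25.3 and 30.1 CPM. The part of these differences in the chemokine results was not tested. In whole cultures, fewer cells with an open site and a less open site in every cell cannot be told apart.

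LPS was the comparison in which the chemokine genes changed most, and the direction at the gene starts was mainly upward. A peak was called a differentially accessible region (DAR) when edgeR's quasi-likelihood test gave an adjusted p of at most 0.05 over all tested peaks and the fold was at least 1.5. In WT cells 20 of 53 chemokine peaks rose with LPS, against 25.4% of all tested peaks, and 6 fell, against 21.6%. In AhR-KO cells 22 rose, against 27.3%, and 10 fell, against 21.5%. Thus 37.7% and 41.5% of the family's peaks rose, while 11.3% and 18.9% fell. The median log2 fold change over the 53 peaks was 0.25 in WT and 0.33 in AhR-KO cells, beside -0.01 and 0.05 over all tested peaks. Of the risen peaks 18 were the same in both genotypes, and 5 of the fallen ones. The LPS and the unstimulated libraries did not overlap at 19 peaks with LPS higher and 9 with LPS lower in WT, where all tested peaks gave 20.5% and 18.3%. In AhR-KO cells this was so at 20 and 10 peaks, beside 24.9% and 20.6%.

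**Figure D1:**
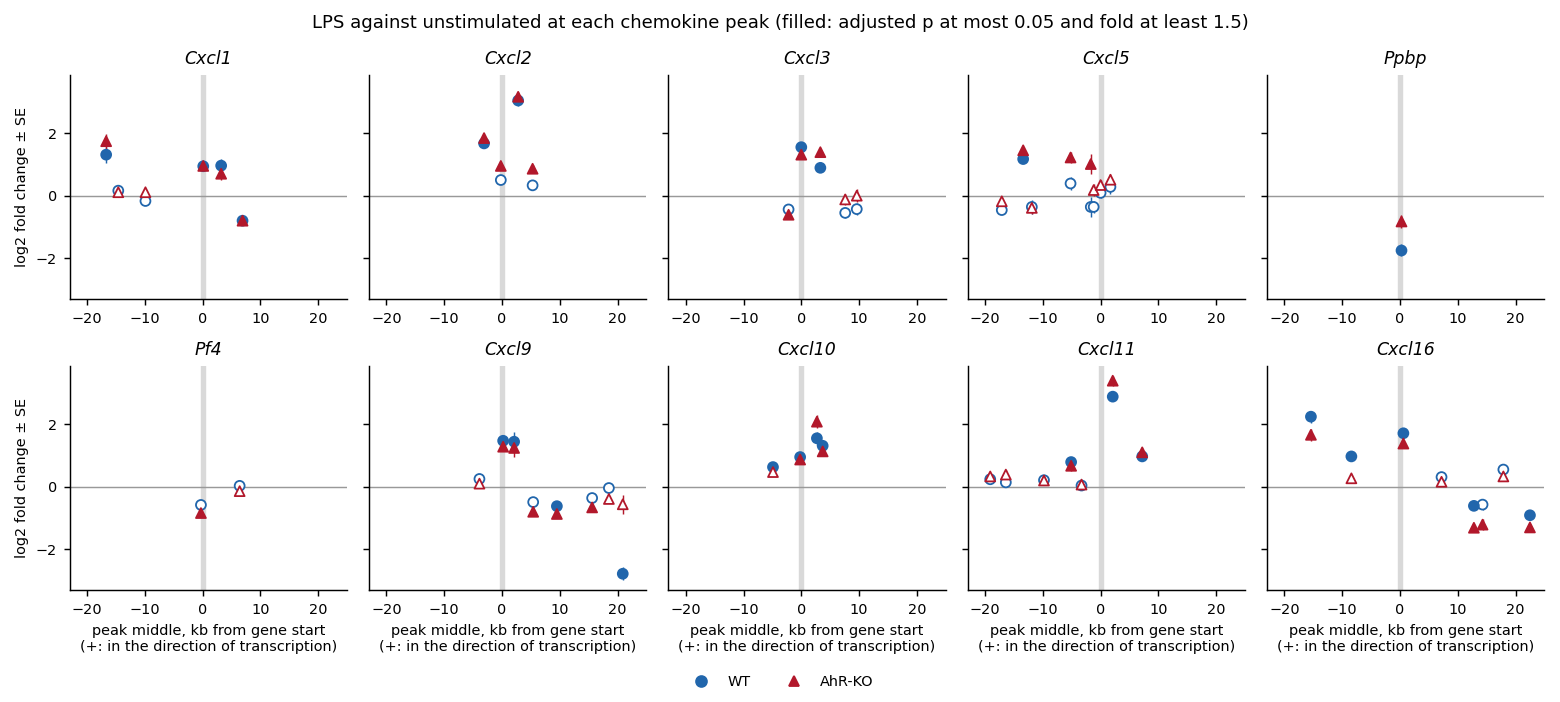
Log2 fold change (± SE) of LPS against unstimulated for each tested peak (y axis) by the distance of its middle from the gene's start in kb (x axis), 1 panel per gene, for WT (circles) and AhR-KO (triangles); filled symbols are DARs. All Cxcl10 peaks lie above 0 in both genotypes, the single Ppbp peak lies below it, and Cxcl9 and Cxcl16 have rising peaks at the start and both rising and falling peaks downstream.

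Among the TSS peaks of the neutrophil attractants, Cxcl3 gained most. Its TSS peak (chr5:90785615-90786591) had a lowest, median and highest value of 8.87, 10.3 and 12.9 CPM in WT unstimulated and 26.4, 30.6 and 33.8 CPM in WT LPS libraries. In AhR-KO cells the values were 11.4, 13.1 and 14.5 CPM before and 27, 31.5 and 38.4 CPM after LPS. No unstimulated library reached an LPS library in either genotype. The rise was 2.92-fold in WT (log2 1.55 ± 0.0883 SE, edgeR adjusted p = 3.46e-17) and 2.48-fold in AhR-KO cells (1.31 ± 0.0847, adjusted p = 5.94e-16). The interaction, which is the genotype difference with LPS minus that without, was -0.24 ± 0.122 (edgeR adjusted p = 0.191). The +3.3 kb peak of Cxcl3 (chr5:90788180-90790567), which starts in the gene and runs past its 3′ end, had the highest CPM of the peaks of this gene. It rose from 23.3 ± 0.83 to 43.2 ± 3.97 CPM in WT and from 20.9 ± 2.26 to 55.0 ± 4.65 CPM in AhR-KO cells (mean ± SD, n = 6). In the LPS state every AhR-KO library was above every WT library at this peak, but the difference (log2 0.35 ± 0.0643) was under the fold limit.

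Cxcl1, a neutrophil attractant that acts in mice much as IL-8 does in people, had a TSS peak (chr5:90890507-90892125) of 3.50, 4.48 and 5.43 CPM in WT unstimulated and 7.37, 8.79 and 10.0 CPM in WT LPS libraries. The AhR-KO values were 3.26, 4.41 and 5.06 CPM and 7.36, 7.93 and 10.8 CPM. The gain was of nearly one size in both, 1.92-fold in WT (log2 0.94 ± 0.118, edgeR adjusted p = 9.85e-09) and 1.93-fold in AhR-KO cells (0.95 ± 0.117, adjusted p = 5.06e-09), without overlap between states. A neighbouring peak went the other way. The +6.9 kb peak (chr5:90897306-90899025), which lies between Cxcl1 and Cxcl2, fell from 27.9 ± 2.50 to 16 ± 1.41 CPM in WT and from 29.7 ± 2.60 to 17.1 ± 2.67 CPM in AhR-KO cells, a log2 change of -0.80 in each. The Cxcl1 peak with the highest CPM over all libraries, at -9.9 kb, had group means of 23.6 to 28.1 CPM and was a DAR in no comparison.

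Cxcl2, a neutrophil attractant that macrophages release early, differed between the genotypes at its start before LPS. The lowest, median and highest values of its TSS peak (chr5:90903008-90904317) were 31.5, 36.3 and 42.1 CPM in WT unstimulated and 21.8, 23.2 and 25.4 CPM in AhR-KO unstimulated libraries, with no overlap. With LPS they were 44.6, 50.4 and 59.4 CPM in WT and 38, 45.7 and 51.8 CPM in AhR-KO libraries, which overlapped. The rise was 1.93-fold in AhR-KO cells (log2 0.95 ± 0.080, edgeR adjusted p = 1.89e-12). In WT cells it was 1.41-fold (0.50 ± 0.0784, adjusted p = 1.32e-06) and stayed under the fold limit, although the states did not overlap. The interaction of 0.45 ± 0.112 passed the edgeR test (adjusted p = 0.00579) but not the fold limit.

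The +2.8 kb peak of Cxcl2 whose letters are shown above changed far more. It lay at 0.392, 0.626 and 0.814 CPM in WT unstimulated and 0.483, 0.720 and 0.848 CPM in AhR-KO unstimulated libraries, and at 3.75, 5.02 and 6.63 CPM and 4.84, 5.92 and 7.61 CPM with LPS. That is a rise of 8.25-fold in WT (log2 3.04 ± 0.182, edgeR adjusted p = 8.31e-17) and 8.92-fold in AhR-KO cells (3.16 ± 0.169, adjusted p = 1.71e-18). A broad peak had been called there in 3 WT and 5 AhR-KO libraries with LPS and in 0 without it. The peak was thus in the set only through the LPS groups, which favours a rise. The genotype difference at this peak was 0.29 ± 0.127 with LPS (edgeR adjusted p = 0.0654). All 4 Cxcl2 peaks were DARs with LPS in AhR-KO cells and 2 of them in WT cells.

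The start of Cxcl5, an attractant of neutrophils made largely by epithelium, held few reads and did not pass the test in any comparison. Its TSS peak (chr5:90758952-90759784) ranged from 1.14 to 1.83 CPM in WT unstimulated and 1.18 to 2.03 CPM in WT LPS libraries, and from 0.966 to 1.51 and 0.982 to 1.81 CPM in AhR-KO libraries without and with it. The 4 ranges overlapped throughout, and a broad peak had been called there in 3 of 6 libraries of each genotype without LPS and in 5 of 6 with it. Its log2 fold changes ran from -0.27 to 0.34 with edgeR adjusted p from 0.09 to 0.917. The Cxcl5 peak with the highest CPM, at -17.1 kb, was a DAR in no comparison. With LPS 1 of the 8 Cxcl5 peaks rose in WT cells, that at -13.4 kb (log2 1.17 ± 0.105, edgeR adjusted p = 4.45e-12), and 3 rose in AhR-KO cells, those at -13.4, -5.2 and -1.7 kb. The call at -1.7 kb rested on AhR-KO LPS replicate 5, which held 0.977 CPM where the median of its group was 0.415 CPM, and the log2 value went from 1.01 to 0.69 and was no DAR without it.

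The platelet genes moved the other way. Ppbp, the precursor of the neutrophil attractant NAP-2, had a single peak, over its start (chr5:90768104-90769319), which was highest in WT unstimulated libraries at 5.47, 9.12 and 10.3 CPM. It fell to 1.46, 2.75 and 3.43 CPM in WT LPS libraries. The AhR-KO values were 2.40, 3.76 and 4.11 CPM unstimulated and 1.08, 2.15 and 2.69 CPM with LPS. The fall with LPS was 3.35-fold in WT (log2 -1.74 ± 0.190, edgeR adjusted p = 3.53e-09, no overlap) and 1.77-fold in AhR-KO cells (-0.82 ± 0.210, adjusted p = 0.00107, with overlap). A broad peak had been called at this start in 5 of 6 WT and 3 of 6 AhR-KO libraries without LPS, and in 2 and 0 with it.

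Pf4, platelet factor 4, fell in the same direction by less. Its TSS peak (chr5:90771320-90772912) had 10.7, 12.7 and 13.4 CPM in WT unstimulated and 6.40, 8.87 and 9.55 CPM in WT LPS libraries, and 9.47, 10.4 and 11.3 CPM and 4.16, 5.81 and 7.08 CPM in AhR-KO libraries without and with it. The LPS libraries were below all unstimulated ones in each genotype. The fall was 1.79-fold in AhR-KO cells (log2 -0.84 ± 0.106, edgeR adjusted p = 1e-08), and the value in WT cells was -0.58 ± 0.102 (adjusted p = 6.94e-06), just under the fold limit. The platelet marker genes Gp1ba and Gp9 had no tested TSS peak. Itga2b, another, averaged 2.52 CPM without and 3.77 CPM with LPS in WT and 1.72 and 2.35 CPM in AhR-KO cells. Its ranges of 1.63 to 3.08 and 1.64 to 5.26 CPM in WT and 1.51 to 1.93 and 1.79 to 3.02 CPM in AhR-KO cells overlapped between the states and between the genotypes. The part of platelet-lineage cells in these values was not tested.

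**Figure D2:**
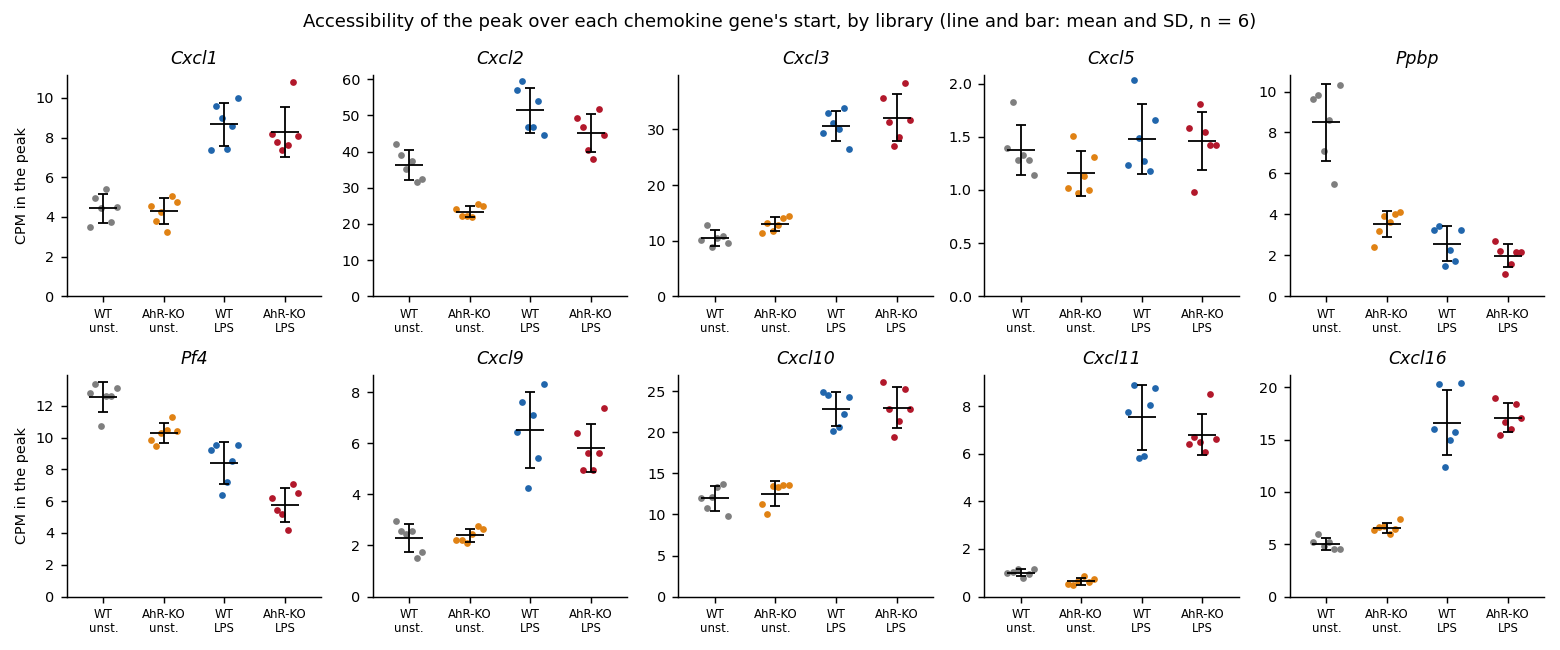
CPM (y axis, from 0) in the TSS peak of each of the 10 genes for every library, in the 4 groups along the x axis; the black line and bar are the mean and SD of 6 libraries. LPS libraries sit above unstimulated ones in both genotypes for Cxcl1, Cxcl2, Cxcl3, Cxcl9, Cxcl10, Cxcl11 and Cxcl16, below them for Pf4, and amid them for Cxcl5; for Ppbp the WT unstimulated libraries (5.47 to 10.3 CPM) stand above the rest.

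The 3 CXCR3 ligands all gained at their starts. The Cxcl10 TSS peak (chr5:92348315-92349833) went from 9.81, 12 and 13.7 to 20.2, 23.3 and 24.9 CPM in WT cells and from 10.0, 13.4 and 13.6 to 19.5, 22.9 and 26.2 CPM in AhR-KO cells. The states did not overlap and the genotypes did. LPS raised it 1.93-fold in WT (log2 0.95 ± 0.0869, edgeR adjusted p = 7.51e-12) and 1.83-fold in AhR-KO cells (0.87 ± 0.085, adjusted p = 2.17e-11). The interaction was -0.07 ± 0.121 (edgeR adjusted p = 0.736). The other 3 Cxcl10 peaks rose too in WT cells, and 2 of them in AhR-KO cells, with log2 fold changes over the 4 peaks of 0.63 to 1.55 and 0.47 to 2.08. The middles of all Cxcl10 and all Cxcl11 peaks lie within the Art3 gene, and the -3.9 kb peak of Cxcl9 covers a start of Art3. These peaks thus do not belong to the chemokine genes alone.

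The Cxcl9 TSS peak (chr5:92327159-92328589) went from 1.51, 2.50 and 2.97 to 4.25, 6.77 and 8.34 CPM in WT and from 2.11, 2.33 and 2.78 to 4.95, 5.63 and 7.38 CPM in AhR-KO cells. The rise was 2.78-fold (log2 1.47 ± 0.151, edgeR adjusted p = 1.27e-10) and 2.43-fold (1.28 ± 0.149, adjusted p = 1.6e-09). A broad peak was present in 4 and 1 of 6 unstimulated WT and AhR-KO libraries and in all 12 LPS libraries. Downstream of the start, the small +2.1 kb peak inside the gene rose in both genotypes, by 1.44 ± 0.318 (edgeR adjusted p = 0.00016) in WT and 1.24 ± 0.280 (adjusted p = 0.000201) in AhR-KO cells on the log2 scale. Further downstream the DARs fell, those at +20.9 and +9.5 kb in WT and those at +15.6, +9.5 and +5.4 kb in AhR-KO cells.

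Cxcl11 showed the largest fold of all TSS peaks. Its peak (chr5:92363119-92363624) covers the inner of its annotated starts, 2.1 kb into the gene. It lay at 0.782, 1.02 and 1.15 CPM in WT unstimulated and 0.487, 0.626 and 0.869 CPM in AhR-KO unstimulated libraries. With LPS the values were 5.83, 7.90 and 8.89 CPM and 6.06, 6.55 and 8.51 CPM. The rise was 7.38-fold in WT (log2 2.88 ± 0.148, edgeR adjusted p = 1.03e-18) and 10.5-fold in AhR-KO cells (3.39 ± 0.155, adjusted p = 1.73e-20). The interaction was 0.51 ± 0.233 and did not pass the test (edgeR adjusted p = 0.139). The unstimulated AhR-KO libraries held only 9 to 20 counts each at this peak. The Cxcl11 peak with the highest CPM, at -9.8 kb, had group means of 20.4 to 27.4 CPM and was a DAR in no comparison.

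Cxcl16, the membrane-bound ligand of CXCR6, shares its TSS peak (chr11:70458465-70460209) with the start of Zmynd15, so the reads of the 2 starts cannot be told apart. The peak went from 4.51, 5.03 and 6.02 to 12.4, 15.8 and 20.4 CPM in WT and from 5.95, 6.54 and 7.37 to 15.4, 16.9 and 19 CPM in AhR-KO cells, without overlap. The rise was 3.26-fold (log2 1.71 ± 0.104, edgeR adjusted p = 1.56e-16) and 2.60-fold (1.38 ± 0.099, adjusted p = 7.53e-15). Upstream, the small -15.4 kb peak rose 4.71-fold in WT (log2 2.24 ± 0.193, edgeR adjusted p = 1.53e-12) and 3.16-fold in AhR-KO cells (1.66 ± 0.184, adjusted p = 4.98e-10). It had a broad peak in all 6 LPS libraries of each genotype and in 0 unstimulated ones. It was thus also in the set only through the LPS groups. The -8.4 kb peak rose by 0.97 ± 0.0816 in WT (edgeR adjusted p = 8.46e-13). In AhR-KO cells its value was 0.27 ± 0.0765 (edgeR adjusted p = 0.00229), under the fold limit. Peaks further downstream went both ways. The DARs among them fell, those at +22.5 and +12.8 kb in both genotypes and that at +14.3 kb in AhR-KO cells. The +17.9 kb peak was higher with LPS, under the fold limit, by 0.55 ± 0.117 (edgeR adjusted p = 0.000124) in WT and 0.33 ± 0.113 (adjusted p = 0.0109) in AhR-KO cells on the log2 scale. The +22.5 kb peak (chr11:70437109-70437774, in Arrb2) fell from 8.98 ± 0.864 to 4.76 ± 0.620 CPM in WT and from 7.69 ± 0.466 to 3.12 ± 0.521 CPM in AhR-KO cells. The peak with the highest CPM near the gene, at +7.2 kb over the start of Med11, had group means of 33.1 to 44.0 CPM and was no DAR, with LPS values of 0.31 (edgeR adjusted p = 0.00046) in WT and 0.16 (adjusted p = 0.0554) in AhR-KO cells.

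Between the genotypes few chemokine peaks differed. In unstimulated cells 3 of 53 peaks were higher in AhR-KO than in WT cells, against 9.95% of all tested peaks, and 6 were lower, against 12.6%. With LPS 2 were higher, against 13.4%, and 3 lower, against 13.1%. The family's shares of 5.66% and 11.3% without and 3.77% and 5.66% with LPS were thus at or below those of all tested peaks. Libraries of the genotypes did not overlap at 2 peaks with AhR-KO higher and 4 with it lower when unstimulated (all tested peaks 9.78% and 11.3%), and at 4 and 2 with LPS (10.6% and 8.96%). The median log2 difference was -0.03 in each state, beside -0.02 and 0.02 over all tested peaks. Both genotype comparisons and both LPS comparisons use the same libraries in part. With DESeq2 or with its size factors in edgeR, 3 rather than 6 peaks were lower in unstimulated AhR-KO cells. With LPS, leaving out WT LPS replicate 3 gave 4 higher and 6 lower peaks, AhR-KO LPS replicate 5 gave 6 lower, and AhR-KO LPS replicate 1 or 2 gave 4 higher.

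**Figure D3:**
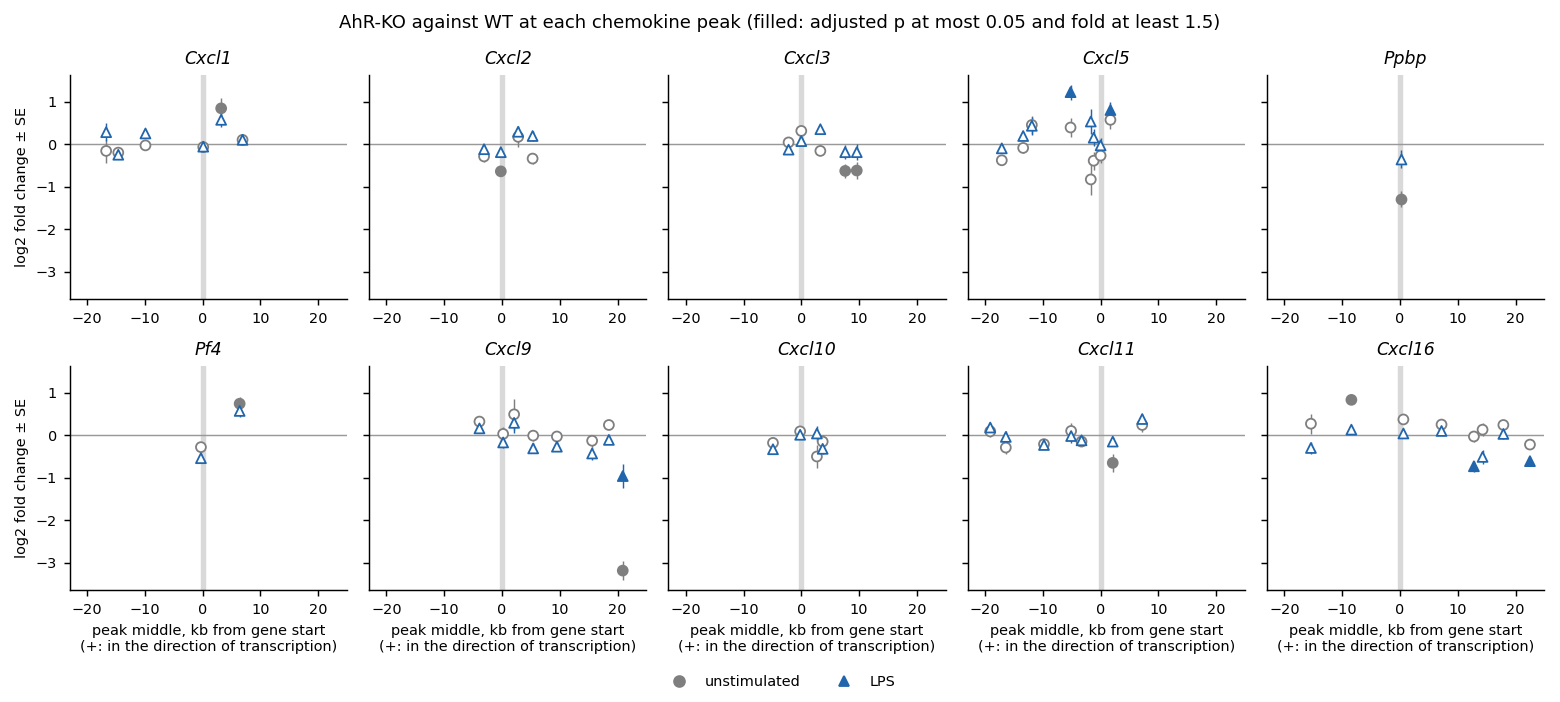
Log2 fold change (± SE) of AhR-KO against WT for each tested peak (y axis) by the distance of its middle from the gene's start in kb (x axis), 1 panel per gene, unstimulated (circles) and with LPS (triangles); filled symbols are DARs. Most peaks lie near 0, and the +20.9 kb peak of Cxcl9 lies lowest at -3.18 unstimulated and -0.96 with LPS.

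With edgeR, 0 of the 10 TSS peaks were DARs between the genotypes with LPS, where the log2 differences ran from -0.54 (Pf4) to 0.07 (Cxcl3). DESeq2 also called 0, and at an unadjusted p under 0.05 edgeR had 2 lower (Cxcl2 and Pf4) and 0 higher. Both also passed the adjusted edgeR test under the fold limit, Pf4 at -0.54 ± 0.105 (adjusted p = 6.05e-05) and Cxcl2 at -0.19 ± 0.0765 (adjusted p = 0.0464). Without WT LPS replicate 3 or AhR-KO LPS replicate 5 the Pf4 value was -0.61 and a DAR. Of all tested peaks, at a start or not, 13.1% were lower and 13.4% higher DARs with LPS. Unstimulated, 4 TSS peaks were lower and 2 higher in AhR-KO cells at an unadjusted edgeR p under 0.05. As DARs, 3 were lower (2 with DESeq2) and 0 higher, beside 12.6% and 9.95% of all tested peaks. The lower ones were those of Ppbp (2.43-fold, log2 -1.28 ± 0.189, edgeR adjusted p = 2.78e-06), Cxcl2 (1.55-fold, -0.64 ± 0.0815, adjusted p = 1.24e-07) and Cxcl11 (1.57-fold, -0.65 ± 0.205, adjusted p = 0.0102). At Ppbp and Cxcl2 no AhR-KO library reached a WT library, whereas at Cxcl11 the ranges of 0.487 to 0.869 and 0.782 to 1.15 CPM overlapped. The Cxcl2 value was -0.57 with DESeq2 and with its size factors, and the Cxcl11 value -0.40 in counts thinned to the lowest library total, both below the fold limit. The TSS peaks of Cxcl16 (0.37 ± 0.112, edgeR adjusted p = 0.00769) and Cxcl3 (0.31 ± 0.0928, adjusted p = 0.00712) passed the test in unstimulated cells with AhR-KO higher, both under the fold limit. That of Pf4 passed it with AhR-KO lower (-0.28 ± 0.103, edgeR adjusted p = 0.0273), also under the fold limit. For Cxcl1, Cxcl9 and Cxcl10 the differences were -0.07, 0.03 and 0.09 unstimulated and -0.06, -0.17 and 0.01 with LPS, with SEs of 0.0807 to 0.169.

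The largest genotype difference of the family was not at a start. The +20.9 kb peak of Cxcl9 held 1.98, 4.26 and 5.94 CPM in WT unstimulated libraries and 0.220, 0.536 and 0.708 CPM in AhR-KO unstimulated ones. With LPS it held 0.545, 0.651 and 0.750 CPM in WT and 0.179, 0.349 and 0.475 CPM in AhR-KO libraries. The genotypes did not overlap in either state, and WT unstimulated libraries stood above all other 18. AhR-KO was 9.08-fold lower when unstimulated (log2 -3.18 ± 0.224, edgeR adjusted p = 1.63e-13) and 1.94-fold lower with LPS (-0.96 ± 0.281, adjusted p = 0.00541). LPS lowered it 6.87-fold in WT cells (-2.78 ± 0.204, edgeR adjusted p = 2.23e-14). A broad peak was called there in 5 of 6 WT unstimulated libraries and in no other library. The peak was thus in the set only through the group where it was high. That favours a difference in this direction, so the p-values are no independent support. The lowest WT value, 1.98 CPM, was that of the shallowest library. Without that library the unstimulated difference was -3.29. It was the only one of the 53 peaks called in the same direction in both states with all libraries in the fit. The Ppbp start likewise had its highest mean in WT unstimulated and its lowest in AhR-KO LPS libraries. So did the Pf4 start and further peaks of the family, such as that at +9.5 kb of Cxcl9. Among the neutrophil markers S100a9 had this order too, at 3.13 and 0.568 CPM. S100a8 was highest in AhR-KO unstimulated libraries (24 CPM) and Camp in AhR-KO LPS libraries (30.1 CPM). The part of neutrophils in these results was not tested. The nearer start is that of Sdad1, whose peak, at +18.5 kb from Cxcl9, had group means of 11.4 to 15 CPM and was no DAR.

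Further genotype differences were of smaller size. Lower in unstimulated AhR-KO cells were also the +7.6 and +9.6 kb peaks of Cxcl3. Their log2 differences were -0.63 ± 0.162 (edgeR adjusted p = 0.00193) and -0.62 ± 0.202 (adjusted p = 0.0134). Leaving out any of 2 libraries ended the first call and any of 5 the second. The -8.4 kb peak of Cxcl16 (chr11:70467478-70469194) held 8.06, 9.51 and 11 CPM in WT unstimulated libraries and 16.2, 17.2 and 19 CPM in AhR-KO unstimulated ones, a 1.78-fold difference (log2 0.83 ± 0.083, edgeR adjusted p = 4.19e-10) without overlap. With LPS the values were 16.5, 19.3 and 21.1 CPM in WT and 17.8, 20.2 and 23.9 CPM in AhR-KO libraries and overlapped. The unstimulated AhR-KO libraries overlapped the WT LPS libraries here. The +6.4 kb peak of Pf4 (chr5:90778136-90779549) was 1.67-fold higher in unstimulated AhR-KO cells (log2 0.74 ± 0.158, edgeR adjusted p = 0.000256) at 3.13 ± 0.495 against 1.85 ± 0.396 CPM. The small +3.2 kb peak of Cxcl1 was higher by 0.84 ± 0.232 (edgeR adjusted p = 0.00361) at 1.11 ± 0.284 against 0.623 ± 0.238 CPM, and no library of either group had a broad peak there. With LPS both were higher in AhR-KO cells by 0.57, just under the fold limit (edgeR adjusted p = 0.00161 for Pf4 and 0.00833 for Cxcl1), and became DARs on leaving out any of 7 libraries (Pf4) or any of 4 (Cxcl1). At the Pf4 peak the genotypes did not overlap in either state.

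With LPS, a pair of Cxcl5 peaks was higher in AhR-KO cells. The -5.2 kb peak (chr5:90753738-90754493) held 0.865, 1.17 and 1.53 CPM in WT LPS and 2.15, 3.0 and 3.42 CPM in AhR-KO LPS libraries, a 2.34-fold difference without overlap (log2 1.22 ± 0.174, edgeR adjusted p = 4.33e-07). The +1.7 kb peak, over an exon of Cxcl5, held 0.939 ± 0.202 and 1.63 ± 0.326 CPM (0.80 ± 0.182, edgeR adjusted p = 0.000422), also without overlap. A pair of Cxcl16 peaks was lower. The +12.8 kb peak (chr11:70446656-70447660) held 5.05, 5.63 and 6.89 CPM in WT LPS and 2.34, 3.20 and 4.93 CPM in AhR-KO LPS libraries (log2 -0.73 ± 0.131, edgeR adjusted p = 2.16e-05), again without overlap. In counts thinned to the lowest library total it was -0.41 and no DAR. The value for the +22.5 kb peak was -0.61 ± 0.108 (edgeR adjusted p = 1.95e-05), and it dropped under the fold limit, to between -0.58 and -0.56, without WT LPS replicate 5 or AhR-KO LPS replicate 2, 3 or 4.

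**Figure D4:**
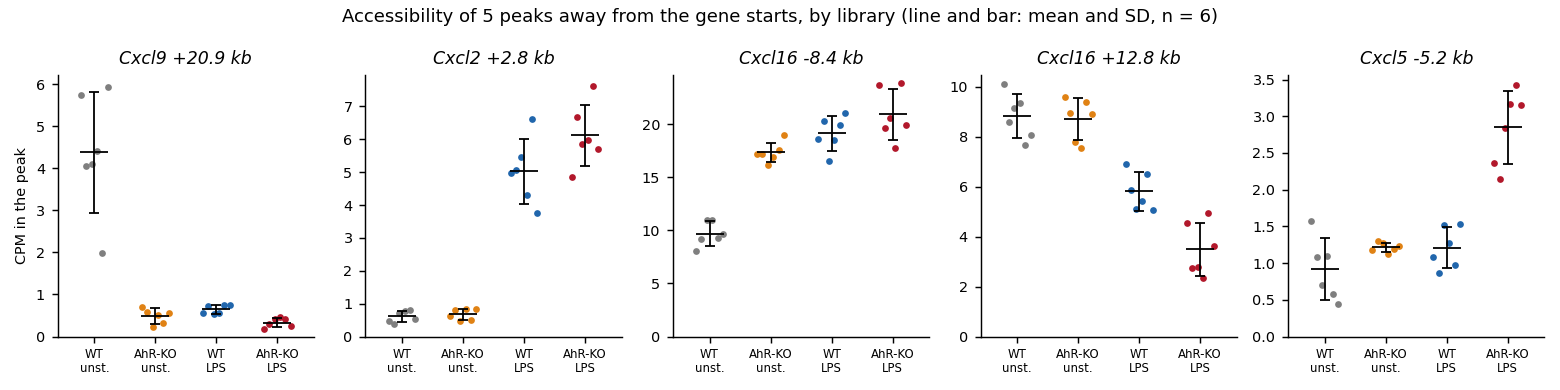
CPM (y axis, from 0) in 5 peaks away from the gene starts for every library, in the 4 groups along the x axis; the black line and bar are the mean and SD of 6 libraries. Only the WT unstimulated libraries hold much of the Cxcl9 +20.9 kb peak (1.98 to 5.94 CPM), only the LPS libraries much of the Cxcl2 +2.8 kb peak (3.75 to 7.61 CPM), and the AhR-KO LPS libraries stand apart at the Cxcl16 +12.8 kb and Cxcl5 -5.2 kb peaks.

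Whether the genotype difference itself changed with LPS was asked by the interaction. It was positive (AhR-KO relatively higher with LPS than without) at 4 chemokine peaks, against 5.83% of all tested peaks, and negative at 2, against 4.58%, so the family's shares of 7.55% and 3.77% were near the background. The largest was the +20.9 kb peak of Cxcl9 at 2.23 ± 0.385 (edgeR adjusted p = 0.000131), where both WT LPS and AhR-KO LPS libraries were low. Ppbp was the only TSS peak among them, at 0.92 ± 0.284 (edgeR adjusted p = 0.0263). Without AhR-KO LPS replicate 1 its interaction was 0.81 and missed the threshold. In counts thinned to the lowest library total the interaction was 1.45 at the Cxcl9 peak, 0.57 at Ppbp, 0.68 at the -5.2 kb peak of Cxcl5 and -0.38 at the +12.8 kb peak of Cxcl16, and none of these was a DAR. Both Cxcl16 peaks described above had an interaction of -0.70, with an SE of 0.112 (edgeR adjusted p = 4.53e-05) at -8.4 kb and 0.180 (adjusted p = 0.00691) at +12.8 kb. The Cxcl5 peaks at -5.2 kb (0.84 ± 0.282, edgeR adjusted p = 0.0391) and -1.7 kb (1.36 ± 0.463, adjusted p = 0.0403) were the least secure, since leaving out any of 14 and any of 10 of the 24 libraries ended the call. The positive count was accordingly 2 without WT unstimulated replicate 2 or 4, AhR-KO unstimulated replicate 6, WT LPS replicate 1 or 2, or AhR-KO LPS replicate 5.

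The receptors and the pathway upstream of these ligands were counted by the same 20 kb rule. Near 8 CXC receptor genes, 72 peaks were tested: 22 rose and 16 fell with LPS in WT, 24 and 18 in AhR-KO cells, and 7 were higher and 4 lower in unstimulated AhR-KO than WT cells. With LPS, 5 were higher and 4 lower in AhR-KO cells. The risen peaks were thus 30.6% in WT and 33.3% in AhR-KO cells, beside 25.4% and 27.3% of all tested peaks, and the fallen ones 22.2% and 25%, beside 21.6% and 21.5%. Between the genotypes the shares were 9.72% higher and 5.56% lower unstimulated (all tested peaks 9.95% and 12.6%) and 6.94% and 5.56% with LPS (13.4% and 13.1%). The median log2 fold change of LPS over these peaks was 0.09 in WT and 0.07 in AhR-KO cells. The TSS peak of Cxcr3, the receptor of Cxcl9, Cxcl10 and Cxcl11, held 18.1 ± 1.78 CPM without and 10.6 ± 1.17 CPM with LPS in WT, and 20.9 ± 0.638 and 5.34 ± 0.827 CPM in AhR-KO cells. It fell by 1.97 ± 0.0873 on the log2 scale with LPS in AhR-KO cells (edgeR adjusted p = 7.26e-21), was lower in AhR-KO than in WT cells with LPS (log2 difference -1.0 ± 0.0883, adjusted p = 3.84e-11), and its interaction was -1.20 ± 0.120 (adjusted p = 1.46e-08). Of the peaks near Cxcr2, the receptor of the neutrophil attractants, 1 was lower in unstimulated AhR-KO cells at 0.235 ± 0.109 against 2.04 ± 0.355 CPM. Other receptor peaks were higher in unstimulated AhR-KO cells. A peak near Cxcr5 held 12.5 ± 1.67 against 5.25 ± 0.858 CPM. A peak near Cxcr6, the receptor of Cxcl16, held 3.32 ± 0.68 against 1.03 ± 0.177 CPM. With LPS, AhR-KO cells were higher at another Cxcr6 peak (3.44 ± 0.779 against 1.3 ± 0.356 CPM) and near Ackr3 (13.8 ± 2.27 against 7.24 ± 1.27 CPM).

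Near 18 genes of TLR4 and interferon signalling, 78 of 252 tested peaks rose and 39 fell with LPS in WT, and 97 rose and 42 fell in AhR-KO cells, with medians of 0.20 and 0.24. The risen shares of 31% and 38.5% stand beside 25.4% and 27.3% of all tested peaks, and the fallen ones of 15.5% and 16.7% beside 21.6% and 21.5%. A peak near Nfkb1, which encodes an NF-κB subunit, rose from 2.32 ± 0.449 to 31.2 ± 2.39 CPM in WT and from 2.74 ± 0.478 to 36.2 ± 3.27 CPM in AhR-KO cells. Between the genotypes, 21 were higher and 20 lower in unstimulated AhR-KO cells, and 33 and 19 with LPS. These shares were 8.33% and 7.94% (all tested peaks 9.95% and 12.6%) and 13.1% and 7.54% (all tested peaks 13.4% and 13.1%). Another peak near Nfkb1 was among the higher ones, at 3.75 ± 0.507 CPM in WT and 9.75 ± 0.731 CPM in AhR-KO unstimulated libraries. A peak near Ifnar1 was among the lower ones, at 1.32 ± 0.481 and 0.104 ± 0.063 CPM. With LPS a peak near Nfkb1 was higher in AhR-KO than in WT cells (12.9 ± 1.06 against 4.81 ± 0.643 CPM). A peak near Irf1 was lower (9.69 ± 1.38 against 19.4 ± 2.67 CPM). For the other CXC ligands (Cxcl12, Cxcl13, Cxcl14 and Cxcl15), 6 peaks near Cxcl15 that already belonged to the 10 genes were left aside. Of the remaining 12 peaks, 2 rose and 3 fell with LPS in WT, and 2 rose and 4 fell in AhR-KO cells. The risen shares were 16.7% in each genotype, beside 25.4% and 27.3% of all tested peaks. The fallen ones were 25% and 33.3%, beside 21.6% and 21.5%. In unstimulated AhR-KO cells 1 was higher (8.33%, against 9.95%) and 0 were lower (against 12.6%). With LPS 0 were higher and 0 lower in AhR-KO cells (against 13.4% and 13.1%). The median log2 fold change of LPS was -0.21 in WT and -0.40 in AhR-KO cells.

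The protein-coding genes whose TSS peak followed that of Cxcl10 most closely over the 24 libraries were Nod2 (Pearson r = 0.976 of log2 CPM), Ube2l6 (0.972), Traf1 (0.965), Acod1 (0.960) and Aff1 (0.957), out of 13454 TSS peaks. For Cxcl2 they were Zfp507 (0.972), Ebi3 (0.970), Med28 (0.966), Smc5 (0.960) and Dpy19l3 (0.958). Nod2, which senses bacterial cell wall fragments, averaged 17.4 and 43.6 CPM without and with LPS in WT and 21 and 46.4 CPM in AhR-KO cells. All 5 genes of the Cxcl2 set had their lowest mean in unstimulated AhR-KO cells, as Ebi3, a subunit of interleukin 27, at 25.5 and 34.3 CPM without and with LPS in WT and 19.3 and 31 CPM in AhR-KO cells. These correlations rest on 4 groups and share their libraries, and they are given as a description.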

How the data were processed

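ATAC-seq of 24 libraries (4 groups of 6) was analysed, grouped by the genotype, treatment and replicate number of the labels. The authors trimmed, aligned (mm10) and filtered the reads with the nf-core atacseq pipeline 1.2.1, called broad peaks per library with MACS2, merged them and counted read pairs per consensus peak with featureCounts 2.0.1, and deposited raw counts, with a minimum overlap fraction of 0.2 and pairs counted in every peak they overlap. Their peak lists were deposited with −log10 q-values, of which only the presence of a peak was used (lowest value 1.00). Demultiplexing with bcl2fastq 2.20.0 is named in the submitters' processing notes. The aligner and any Tn5 shift are not given in the sources used here. Peak starts in the count table counted from 0 and were moved by 1.

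Counts of all 24 libraries entered a single edgeR 4.0.16 quasi-likelihood fit (R 4.3.3) with group as the only factor, TMM scaling (factors 0.9758 to 1.04), the filterByExpr filter, which kept 174193 of 184158 peaks, and Benjamini-Hochberg adjustment over all of them. The limits for a DAR were 0.05 for the adjusted p and 1.5 for the fold. SEs are the log2 fold change over the square root of the F statistic. The fit was tested on simulated data. Named in full were the TSS peak of each gene, the 3 most significant DARs per direction and comparison, and the peak of highest CPM per gene. Other peaks singled out (such as the -13.4 kb peak of Cxcl5) were chosen after their values were seen. The members and lists were chosen with earlier results of these data known. Alternatives were RLE factors, library totals, no filter, DESeq2 1.42.0, thinned counts, other windows and folds, a replicate block and leaving out each library. Library totals of 8.54 M to 34.6 M read pairs set the counting error, which is part of the spread between libraries. No 2 libraries of a group agreed within sampling noise (60 pairs compared).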

Additional observations from a re-analysis of the deposited data

Results flagged for a closer look

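In the 104 sets of 6 libraries examined (26 named peaks in 4 groups), 9 held a library that lay apart from the other 5 by Dixon's criterion at the 95% level, which flags about 1 set in 20 by chance. In WT unstimulated cells these were replicate 2 at the Cxcl5 start (1.83 CPM, highest), replicate 3 at the Pf4 start (10.7 CPM, lowest), replicate 1 at the -17.1 kb peak of Cxcl5 (28.1 CPM, highest) and replicate 1 at the +6.4 kb peak of Pf4 (1.06 CPM, lowest). In AhR-KO unstimulated cells they were replicate 2 at the +7.2 kb peak of Cxcl16 (47.8 CPM, highest) and replicate 6 at the +6.4 kb peak of Pf4 (4.07 CPM, highest). AhR-KO LPS replicate 5 was highest at 3 peaks, the Cxcl1 start (10.8 CPM), the Cxcl11 start (8.51 CPM) and the -9.9 kb peak of Cxcl1 (34.8 CPM).

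The genotype difference changed with LPS, by the interaction term of the edgeR fit, at 5 named peaks. The log2 value was 2.23 at the +20.9 kb peak of Cxcl9, 0.92 at the Ppbp start, 0.84 at the -5.2 kb peak of Cxcl5, and -0.70 both at the -8.4 kb and at the +12.8 kb peak of Cxcl16.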

How the results depend on the processing

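Each count of chemokine peaks and each named log2 fold change was recomputed under the alternatives. Of 338 recomputed counts 301 stayed within 1.5 times the reported one. For AhR-KO against WT unstimulated, 3 higher and 6 lower peaks became 0 and 2 at a fold of 2, and 9 and 11 with no fold limit, and the lower ones 3 with RLE factors and with DESeq2. For AhR-KO against WT with LPS, 2 and 3 became 1 and 0 at a fold of 2 and 7 and 13 with no limit. The higher ones were 4 with RLE factors and with DESeq2, and the lower ones 1 in thinned counts and 0 in a 5 kb window. For LPS in WT, 20 and 6 became 12 and 2 at a fold of 2, and the lower ones 13 with no limit and 3 in the 5 kb window. For LPS in AhR-KO cells, the 10 lower ones became 3 at a fold of 2 and 6 in the 5 kb window. For the interaction, 4 and 2 became 2 and 0 at a fold of 2 and 1 and 1 in thinned counts, the positive ones 7 with no limit, and the negative ones 0 in the 5 kb window. Leaving out 1 library at a time gave 3 to 4 higher and 5 to 7 lower (AhR-KO against WT unstimulated), 2 to 4 and 2 to 6 (with LPS), 20 to 22 and 5 to 9 (LPS in WT), 21 to 23 and 9 to 11 (LPS in AhR-KO) and 2 to 4 and 2 to 3 (interaction).

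Thinning every library to the shallowest total ended the interaction calls at the Ppbp start (0.57), at +20.9 kb of Cxcl9 (1.45), at -5.2 kb of Cxcl5 (0.68, and 0.79 with RLE factors) and at +12.8 kb of Cxcl16 (-0.38), the small LPS rise at +3.2 kb of Cxcl1 in AhR-KO cells (0.08, from 0.70), and the genotype calls with LPS at +12.8 kb (-0.41) and +22.5 kb (-0.43) of Cxcl16, with fewer counts per peak by construction. Signs turned only for values near 0 that were no DAR. In thinned counts these were AhR-KO against WT with LPS at the starts of Cxcl5 (0.08), Cxcl1 (0.05) and Cxcl10 (-0.05), and unstimulated at Cxcl9 (-0.12). The Cxcl10 value was -0.01 with library totals and with only the compared groups, and the Cxcl1 interaction was -0.04 with RLE factors and DESeq2 and -0.01 with library totals. Leaving out 1 library gave -0.08 to 0.06 for the Cxcl1 interaction. With LPS, the genotype value ran from -0.03 to 0.06 at Cxcl10, -0.03 to 0.11 at Cxcl16 and -0.09 to 0.08 at Cxcl5. Unstimulated it ran from -0.03 to 0.10 at Cxcl9, and LPS in WT from -0.02 to 0.20 at Cxcl5. The cause was not tested.

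In no comparison were all 6 correlations of same-numbered deviations over 0.1, so the numbers were not taken to pair the libraries. For LPS in WT they ran from 0.037 to 0.290, with 5 over 0.1 and the own number the best match in 4 of 6, and in AhR-KO cells from 0.00375 to 0.171 (2 over 0.1, best in 3). Between the genotypes they ran from -0.0967 to 0.0478 (best in 2) unstimulated and from -0.128 to 0.219 (best in 1) with LPS. This is a hint from the data on the LPS comparisons, not part of the design. With the replicate number as a block, 3 higher and 7 lower peaks were called for AhR-KO against WT unstimulated and 20 and 7 for LPS in WT cells, and the other counts stayed as reported. At the Pf4 start the block moved the LPS value in WT from -0.58 to -0.59, past the fold limit.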
